A study of Homo sapiens with 1 sample.

Results

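NPPB, EDN1, SPP1, TFPI2, GREM1 and IL11 encode 6 secreted proteins that act on vessels, on the extracellular matrix and in tissue repair, and their mRNAs were counted in single cells on the way from human embryonic stem cells to neural progenitor cells (NPCs). The 6 genes were taken by name from the 33538 genes listed in the count matrix. They had been picked because they stood out in cells rich in TAGLN, the gene of the actin-binding protein transgelin, so the difference between these cells and the others is described here and is not tested. TAGLN-high cells were those with at least 10 TAGLN unique molecular identifiers (UMIs, each tagging 1 captured mRNA molecule) per 10000. There were 2510 of them among 13925 kept cells, or 18.0% (95% Clopper-Pearson interval 17.4 to 18.7%), and 14726 barcodes had been deposited.

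All cells came from 1 library of H9, an established human embryonic stem cell line, with the genotype WT and with the human form of HAR123 (hHAR123), a human accelerated region. Differentiation began with 2 days in dorsomorphin (1 μM), SB431542 (10 μM) and Rock inhibitor (5 μM), of which dorsomorphin blocks BMP receptors and SB431542 activin and TGF-β receptors. It went on with 5 days in suspension under dorsomorphin and SB431542 at those doses, then 7 days as replated embryoid bodies. Cells of 2 clones were pooled before loading, and they had not yet passed through rosette selection. Cells of other genotypes in the series were not used here. With 1 library there is no replicate and no test, and every interval covers counting error only.

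The 6 proteins belong to separate pathways. NPPB encodes B-type natriuretic peptide, a hormone of stretched heart muscle that relaxes vessels through guanylyl cyclase receptors. EDN1 encodes endothelin-1, a strong vasoconstrictor that acts through the receptors EDNRA and EDNRB. SPP1 encodes osteopontin, a matrix protein of bone and healing tissue that binds integrins and CD44, and TFPI2 encodes a Kunitz-type inhibitor of plasmin and other serine proteases in the matrix. GREM1 encodes gremlin-1, which binds BMPs and keeps them from their receptors, and IL11 encodes interleukin-11, a cytokine that signals through IL11RA and gp130. None of the 6 is a usual marker of NPCs.

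Genome positions were taken from the GENCODE annotation of GRCh38. NPPB lies at chr1:11857464-11858945 on the minus strand, EDN1 at chr6:12290361-12297194 on the plus strand and SPP1 at chr4:87975667-87983532 on the plus strand. TFPI2 lies at chr7:93885396-93890753 on the minus strand, GREM1 at chr15:32718004-32745106 on the plus strand and IL11 at chr19:55364382-55370463 on the minus strand. TFPI2 overlaps GNGT1 on the opposite strand, which held 2794 UMIs in the kept cells against 47172 for TFPI2. GREM1 overlaps its antisense gene GREM1-AS1, which held 23 UMIs against 12642. SPP1 overlaps a gene annotated on the minus strand that is not among the listed genes. Whether counting used the strand is not given in the sources used here, so reads of these overlapping genes may not be fully separated.

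Start-site windows from RefSeq (GRCh38.p14) were matched for EDN1, SPP1, TFPI2, GREM1 and IL11, with 8 windows in all, each running from 250 bases before to 50 bases after a start. They were searched on both strands for TGANTCA (the AP-1 motif), CATTCC (TEAD), the CArG box (SRF), TATAAA and GATAAG. The 250 bases before the start are shown for IL11 and TFPI2, since these windows hold TGANTCA, and for EDN1, whose annotated start lies just after a TATAAA. Capitals mark the matched motif, and each sequence is written 5′ to 3′ on the strand of its gene.
IL11: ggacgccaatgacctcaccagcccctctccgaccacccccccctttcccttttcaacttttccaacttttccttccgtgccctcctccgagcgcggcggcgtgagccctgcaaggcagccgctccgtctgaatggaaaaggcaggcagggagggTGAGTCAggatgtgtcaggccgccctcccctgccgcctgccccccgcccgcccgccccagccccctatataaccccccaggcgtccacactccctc
TFPI2: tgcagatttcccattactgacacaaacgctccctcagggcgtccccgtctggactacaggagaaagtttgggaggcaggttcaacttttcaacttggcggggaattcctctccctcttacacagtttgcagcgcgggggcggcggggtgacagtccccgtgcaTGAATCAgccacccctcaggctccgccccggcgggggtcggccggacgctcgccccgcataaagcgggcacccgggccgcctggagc
EDN1: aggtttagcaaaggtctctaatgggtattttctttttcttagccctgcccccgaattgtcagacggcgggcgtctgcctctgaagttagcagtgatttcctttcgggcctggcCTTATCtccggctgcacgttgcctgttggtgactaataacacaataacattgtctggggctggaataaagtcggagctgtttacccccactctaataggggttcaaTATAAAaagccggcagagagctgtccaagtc
The IL11 stretch is chr19:55370464-55370713 on the minus strand, the TFPI2 stretch is chr7:93890754-93891003 on the minus strand and the EDN1 stretch is chr6:12290111-12290360 on the plus strand. Counted from the start, TGANTCA stood at -96 to -90 in IL11 and at -87 to -81 in TFPI2. The middle base was G in IL11, as in the AP-1 motif, and A in TFPI2, which only the loose form allows. In EDN1 the capitals mark GATAAG, read on the opposite strand, at -137 to -132 and TATAAA at -31 to -26. Among all 35116 windows of 300 bases in the table, 7.71% held TGANTCA, 11.5% TATAAA, 6.36% GATAAG, 14.0% CATTCC and 1.29% a CArG box. A second EDN1 window, from a start farther upstream, held CATTCC. None of the matches overlapped another motif, and no letters of these motifs were found in the windows of SPP1 and GREM1. A match describes the letters only.

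Kept cells had 2000 to 10000 detected genes and a mitochondrial share below 0.1. The TAGLN-high cells were deeper than the others, with a median of 36707.5 against 16524 UMIs per cell, and they held 32.1% of all kept UMIs. The median mitochondrial share was 5.15% in TAGLN-high and 5.16% in other cells. Shares of cells were therefore compared after each cell had been thinned at random to 5000 UMIs, which kept 2507 TAGLN-high and 11390 other cells and left out 3 and 25 shallower ones. Levels are pooled counts per 1000000 UMIs (CPM) over all cells of a group. The library counts the 3′ ends of mRNAs, so levels were not divided by gene length and no order between genes is read from them.

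All 6 factors were at least 3-fold higher in TAGLN-high cells, where 4.01% of the 20571 genes with at least 50 UMIs were that much higher and 7.77% were at least 3-fold lower. Since the genes were chosen for this difference, nothing further is read from the count. NPPB stood at 317.4 CPM in TAGLN-high cells and 3.04 CPM in the others, a ratio of 104 (95% interval 96.5 to 113) that was the highest of all genes tested. EDN1 stood at 223.7 against 4.28 CPM, with a ratio of 52.3 (49.0 to 56.0) and rank 8. For both vasoactive peptides nearly all the mRNA lay in the TAGLN-high cells, which held 98.0% of the NPPB UMIs and 96.1% of the EDN1 UMIs.

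The matrix protein osteopontin was the least concentrated of the 6 in these cells. SPP1 had a level of 412.5 CPM against 23.4 CPM, a ratio of 17.6 (17.1 to 18.1) at rank 83. TFPI2 had 433.1 against 16.3 CPM, a ratio of 26.5 (25.6 to 27.5) at rank 35. Among the signalling proteins, the BMP antagonist GREM1 had 115.7 against 4.55 CPM, a ratio of 25.4 (23.8 to 27.2) at rank 38. The cytokine IL11 had 71.6 against 1.92 CPM, with a ratio of 37.3 (33.8 to 41.3) at rank 16. The TAGLN-high cells held between 89.3% (SPP1) and 94.6% (IL11) of the UMIs of these 4 genes. The size of the ratios depended on the TAGLN limit. With limits of 5 and 20 the ratio was 128 and 70.7 for NPPB and 67.2 and 30.7 for EDN1. It was 29.2 and 6.91 for SPP1, 52.2 and 13.0 for TFPI2, 42.7 and 10.7 for GREM1 and 61.4 and 17.5 for IL11. Without cells of 50000 or more UMIs it was 74.7 for NPPB, 15.8 for GREM1 and 21.6 for IL11. Counted as UMIs per cell, with the deeper cells given their full weight, the ratios ran from 37.8 for SPP1 to 224 for NPPB. That scale shifts every gene, as the median log2 ratio of all genes tested stood at -0.34 on the CPM scale and 0.76 on the other.

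**Figure D1:**
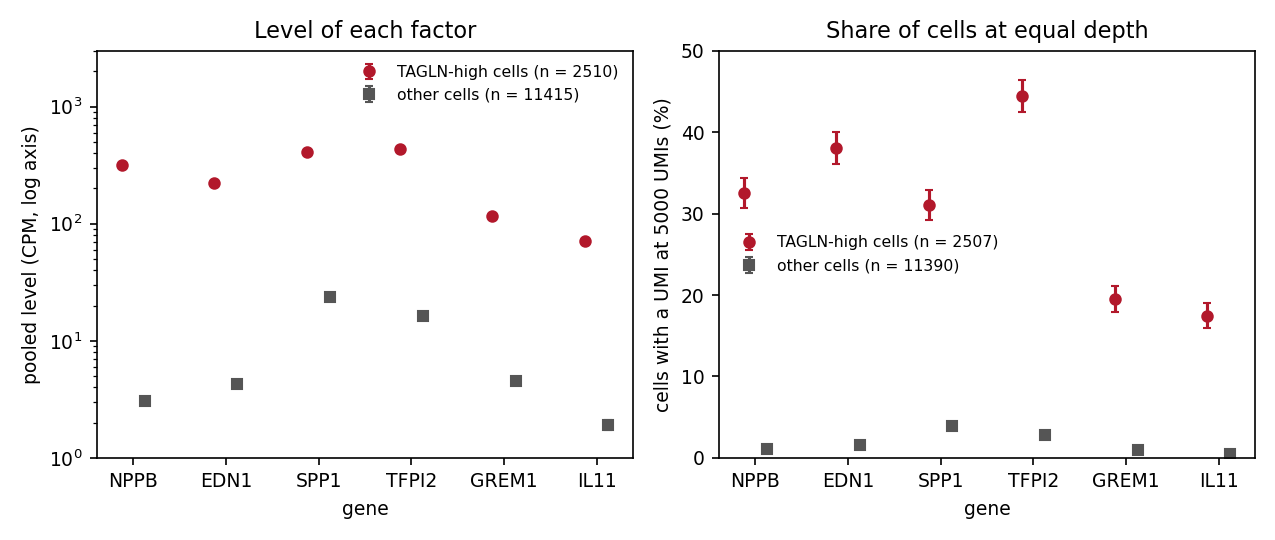
Left, pooled level of each factor in CPM on a log axis. Right, percent of cells with at least 1 UMI after thinning to 5000 UMIs per cell. Circles are TAGLN-high cells, squares the other kept cells, and bars 95% counting intervals of the 1 library, most of them smaller than the symbol. Each factor was higher in TAGLN-high cells, from 17.5% of cells (IL11) to 44.4% (TFPI2), against at most 3.90% (SPP1) of other cells.

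At equal depth the factors were found in a minority of TAGLN-high cells. TFPI2 was found in 44.4% of them (95% interval 42.4 to 46.4), EDN1 in 38.1% (36.1 to 40.0) and NPPB in 32.5% (30.6 to 34.3). SPP1 was found in 31.1% (29.3 to 32.9), GREM1 in 19.5% (18.0 to 21.1) and IL11 in 17.5% (16.0 to 19.0). The intervals of NPPB and SPP1 overlapped, as did those of GREM1 and IL11. At full depth the shares were higher, from 36.8% for GREM1 to 68.2% for TFPI2. In other cells the thinned shares were 3.90% for SPP1, 2.77% for TFPI2, 1.52% for EDN1, 1.04% for NPPB, 0.957% for GREM1 and 0.474% for IL11.

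Neuron-marker-rich cells gave a background level, since they should lack these factors. Among 84 other cells with at least 10 UMIs of STMN2 per 10000, the median depth was 12975 UMIs. NPPB was found in 2 of them at 5000 UMIs, or 2.38% (0.290 to 8.34%), SPP1 also in 2.38%, and TFPI2 and IL11 in 1.19% each. EDN1 and GREM1 were found in 0 of 84, which allows a share of up to 3.57% (3 counts of 84). At 5000 UMIs the shares of NPPB and IL11 in other cells were below these values, those of the remaining 4 lay within the upper bounds that 84 cells allow, and no share at that depth is read as expression. At full depth the levels of SPP1 and TFPI2 in other cells went beyond the upper bounds of these 84 cells. Shares at full depth compare unequal depths, with medians of 16524 UMIs in other cells and 12975 in the 84. SPP1 stood at 23.4 CPM in other cells and 2.47 CPM (0.509 to 7.21) in the neuron-marker-rich cells, and it was found in 11.6% and 3.57% (0.743 to 10.1) of them. TFPI2 stood at 16.3 against 1.64 CPM (0.199 to 5.94) and was found in 8.42 against 2.38% (0.290 to 8.34), a share only just past the bound. In the 6180 other cells with no TAGLN UMI, SPP1 stood at 6.02 CPM and TFPI2 at 3.83 CPM, both within these bounds. Over all other cells, the levels of the remaining 4 factors did not exceed the upper bounds. For IL11 that bound rests largely on 1 cell, which held 5 of the 6 IL11 UMIs of the 84 cells. IL11 thus stood at 4.93 CPM in them and at 1.92 CPM in other cells.

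The make-up of the factors differed between the groups. Of all UMIs of the 6 genes, NPPB made up 20.2% in TAGLN-high cells and 5.69% in the others. EDN1 made up 14.2% against 7.99%, and SPP1 went the other way with 26.2% against 43.8%. TFPI2 (27.5 and 30.5%), GREM1 (7.35 and 8.49%) and IL11 (4.55 and 3.58%) differed less. Much of the SPP1 outside the TAGLN-high group came from few cells, as 66 other cells with at least 10 SPP1 UMIs held 67.7% of it. Likewise 57 cells held 64.7% of the TFPI2 UMIs and 29 cells held 58.5% of the GREM1 UMIs. NPPB, EDN1 and IL11 reached 10 UMIs in only 6, 7 and 6 other cells. Many of these UMIs lay just under the TAGLN limit. The 720 other cells with 5 to 10 TAGLN UMIs per 10000 held 50.6% of the SPP1, 59.0% of the TFPI2, 52.1% of the GREM1 and 51.7% of the IL11 UMIs of other cells, against 36.9% for NPPB and 38.9% for EDN1. In the 6180 cells with no TAGLN UMI the make-up was closer to that of the TAGLN-high cells for both peptides, with NPPB at 13.8% and EDN1 at 12.3% of 1589 UMIs, while SPP1 made up 39.0%. The part of free RNA in these proportions was not tested.

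Within the TAGLN-high group each factor was concentrated in part of the cells. The NPPB count had a median of 1, a 90th percentile of 38 and a highest value of 430 UMIs per cell. SPP1 was as uneven, with a median of 1, a 90th percentile of 54 and a highest value of 480. The top 10% of cells held 71.1% of the SPP1 UMIs, 67.8% of GREM1, 67.4% of NPPB and 62.4% of IL11. EDN1 and TFPI2 were spread more widely, with medians of 2 and 3 UMIs per cell and with 51.1% and 52.4% of their UMIs in the top 10%.

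The group of cells was described with TAGLN alone, so its labelled identity was compared with marker genes, counted at 3-fold beside the 4.01% of all genes tested that were higher and the 7.77% that were lower. Summed markers of neural progenitors reached 4469 CPM in TAGLN-high and 2348 CPM in other cells, but their median ratio was 0.392. VIM (4.08) was the only one of 7 at least 3-fold higher and 3 were that much lower, so the sum does not stand for most of them. SOX2 stood at 165.7 against 422 CPM. Forebrain markers summed to 650.1 against 1167 CPM, with 3 of 6 at least 3-fold lower. Markers of cardiomyocytes, a usual source of NPPB, summed to 13.3 against 20.6 CPM, but their median ratio was 2.59. TNNI3 made up most of the sum in other cells, so this sum does not stand for most of the list either. In TAGLN-high cells 3 of 6 tested cardiomyocyte markers were at least 3-fold higher, among them TNNT2 at 4.50 CPM, 1 was that much lower, TNNI3 at 5.26 against 19.2 CPM, and MYH6 had 1 UMI. Markers of endothelium, a usual source of EDN1, summed to 34.3 against 20.04 CPM with TEK (4.67) and CDH5 (3.64) at least 3-fold higher, CLDN5 (0.311) that much lower and PECAM1 at 0.278 CPM. Markers of immune cells, a usual source of SPP1, summed to 1.25 against 1.17 CPM. Smooth muscle markers summed to 296.2 against 34.4 CPM, with ACTA2 and CNN1 at least 3-fold higher and MYH11 at 1.18 against 2.03 CPM. Mesenchyme and crest markers summed to 136.4 against 26.1 CPM, with 5 of 7 tested at least 3-fold higher and DCN at 0 UMIs. Of the remaining lists, trophoblast and amnion markers summed to 8.84 against 1.80 CPM, with GATA3 (13.3) and ISL1 (6.36) at least 3-fold higher, TFAP2A (0.245) that much lower and HAND1 at 0 UMIs. Of 5 bone markers, RUNX2 was at least 3-fold higher (3.45), BGLAP had a ratio of 0.662, and SP7, IBSP and DMP1 were under the minimum of 50 UMIs. Neuron markers summed to 66.1 against 116.0 CPM, with ELAVL4 the 1 of 5 at least 3-fold lower. Of 4 pluripotency markers, DPPA4 had a ratio of 0.609 and NANOG of 0.262, with POU5F1 and TDGF1 under 50 UMIs. The part of these other cell types in the level of the 6 factors was not tested.

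**Figure D2:**
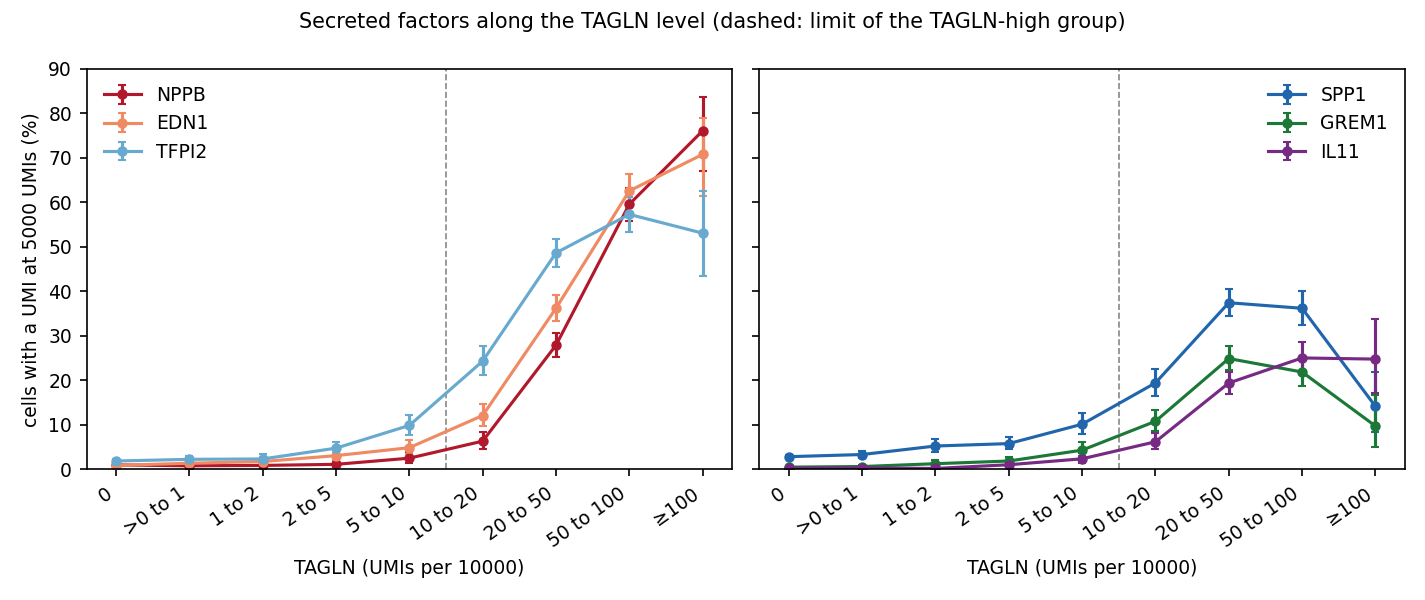
Percent of cells with at least 1 UMI of each factor after thinning to 5000 UMIs, by TAGLN level in UMIs per 10000 (9 bins, 13897 thinned cells of 1 library). Bars are 95% Clopper-Pearson intervals and the dashed line marks the limit of 10. NPPB and EDN1 reached 76.1% and 70.8% in the bin of 100 or more, where SPP1 and GREM1 stood at 14.2% and 9.73%.

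The factors were followed along the TAGLN level as a description, since TAGLN defined the group. On either side of the limit the shares were as follows. Among 223 cells with 8 to 10 TAGLN UMIs per 10000, NPPB was found in 3.59% at equal depth, EDN1 in 6.73%, SPP1 in 16.6%, TFPI2 in 15.2%, GREM1 in 7.17% and IL11 in 4.04%. Among 162 cells with 10 to 12, the shares were 4.94, 13.0, 14.2, 17.3, 6.79 and 4.94% in the same order, with EDN1 showing the widest gap. Above the limit the factors parted. NPPB was found in 6.33% of cells at 10 to 20, in 27.9% at 20 to 50, in 59.6% at 50 to 100 and in 76.1% at 100 or more. EDN1 followed with 12.1, 36.2, 62.6 and 70.8%. TFPI2 reached 48.7% at 20 to 50 and then stood at 57.3 and 53.1%. SPP1 peaked earlier, with 19.4% at 10 to 20, 37.5% at 20 to 50, 36.2% at 50 to 100 and 14.2% at 100 or more. GREM1 had the same shape with 10.8, 24.9, 21.9 and 9.73%, and IL11 ran from 6.19% through 19.4 and 25 to 24.8%.

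Levels showed the same separation. From 50 to 100 to the 114 cells at 100 or more, NPPB went from 631.6 to 1208 CPM and SPP1 from 288.1 to 74.8 CPM. Those 114 cells were also shallower, with a median of 29505.5 against 42840.5 UMIs. Over the better filled range, the 778 cells at 50 or more were set against the 1037 cells at 20 to 50, which had like median depths of 40466 and 41467 UMIs. NPPB was 3.76-fold and EDN1 2.36-fold higher in the upper cells, both past 1.5-fold, where 1.62% of 15824 genes were that much higher and 7.2% that much lower. IL11 had a ratio of 1.24 and TFPI2 of 1.00. GREM1 had a ratio of 0.732, and SPP1, at 0.511, was the only factor past 1.5-fold in the other direction.

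The same ratios were taken within depths, and in the shallow tertile all 6 factors were higher above a TAGLN level of 50. The TAGLN-high cells were divided into tertiles of their full depth, at 5506 to 27979, 28034 to 47402 and 47423 to 118188 UMIs. NPPB was 16.3-fold higher in the shallow tertile, 4.84-fold in the middle and 3.37-fold in the deep one. EDN1 was 3.78-, 3.63- and 1.96-fold higher. SPP1 was 2.23-fold higher in the shallow tertile (95% interval 1.82 to 2.75), where its level was only 67.1 against 30.1 CPM. In the middle and deep tertiles its ratio was 0.489 and 0.522. GREM1 ran likewise from 1.92 through 0.759 to 0.751. IL11 had ratios of 4.54, 1.15 and 1.25, and TFPI2 of 2.43, 1.11 and 0.971. Without cells of 50000 or more UMIs the EDN1 ratio over all depths was 3.57.

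Depth itself moved with the factors, although each cell was read at the same 5000 UMIs. From the shallow through the middle to the deep tertile, NPPB was found in 13.2, 32.6 and 51.7% of cells and EDN1 in 18.8, 40.0 and 55.4%. SPP1 was found in 8.73, 24.2 and 60.3%, TFPI2 in 16.1, 44.3 and 72.7%, GREM1 in 3.59, 12.3 and 42.6% and IL11 in 6.22, 13.9 and 32.3%. The median TAGLN level also differed between these tertiles, at 23.5, 37.3 and 41.1 UMIs per 10000. In other cells of the same depth ranges the shares were lower for each factor. SPP1 was found in 3.37, 5.65 and 24.7% of them, NPPB in 0.971, 1.41 and 3.09% and EDN1 in 1.21, 2.91 and 11.1%. The deepest of these ranges held only 162 other cells. The part of depth and of cell doublets in these shares was not tested beyond the divisions given.

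**Figure D3:**
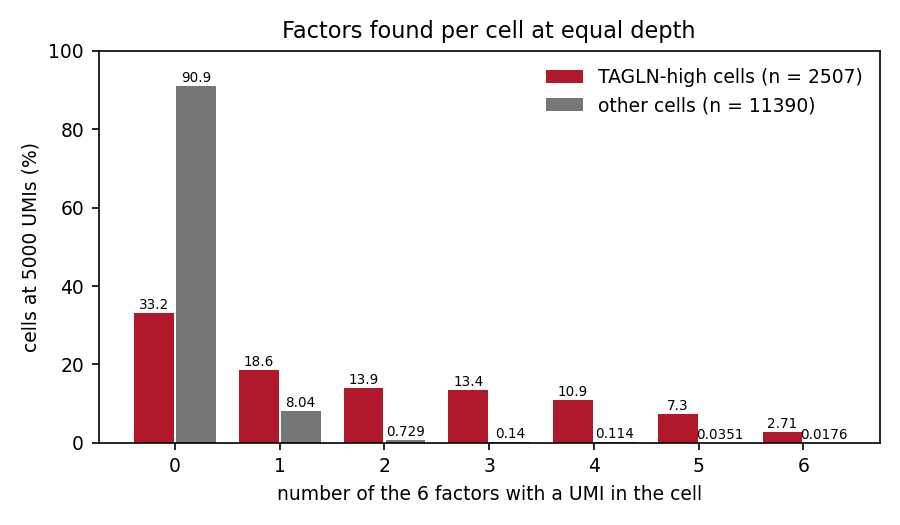
Percent of cells, on a linear axis from 0, in which 0 to 6 of the factors had a UMI after thinning to 5000 UMIs per cell, with the value above each bar. Red bars are the 2507 TAGLN-high and grey bars the 11390 other cells of 1 library. No factor was found in 33.2% and 90.9% of them, and all 6 in 2.71% and 0.0176%.

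Several factors were often found in the same cell. At equal depth at least 1 factor was found in 66.8% of TAGLN-high and 9.08% of other cells. At least 2 were found in 48.2% (95% interval 46.3 to 50.2) against 1.04% (0.858 to 1.24). All 6 were found in 68 TAGLN-high cells and in 2 others. Of the 64 possible combinations 63 were seen in TAGLN-high cells. After none at all (832 cells), the commonest were EDN1 alone (188 cells), TFPI2 alone (138 cells) and NPPB with EDN1 and TFPI2 (96 cells). By tertile of the TAGLN level, 24.5, 50.8 and 69.4% of TAGLN-high cells held at least 2 factors, and by tertile of depth 16.9, 46.2 and 81.6%. Of the other cells in the same depth ranges, 0.416, 3.62 and 21.6% did so. The deepest range held only 162 other cells. The gap between the groups was thus narrower in deep cells than over all cells.

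In all 15 pairs the cells with both factors outnumbered the product of the separate shares. The ratio of found to product ran from 1.36 for EDN1 with SPP1 to 2.66 for GREM1 with IL11, with a median of 1.76. SPP1 with GREM1 had 2.56 and SPP1 with IL11 2.24. GREM1 was found in 49.9% (46.4 to 53.5) of the cells with SPP1 and in 5.79% (4.73 to 6.99) of those without. NPPB with EDN1 had a ratio of 1.65, as EDN1 was found in 62.8% of the cells with NPPB and in 26.2% of those without. Depth and TAGLN both moved with these shares, so the products were also summed within tertiles. All 15 pairs stayed above the product within TAGLN tertiles, at 1.2 to 2.45 with a median of 1.48. Within depth tertiles, chosen after seeing the data, all 15 did so too, at 1.08 to 1.73 with a median of 1.34. The pair of GREM1 and IL11 then had 1.73, SPP1 and GREM1 1.61, NPPB and EDN1 1.39 and EDN1 with SPP1 1.08.

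**Figure D4:**
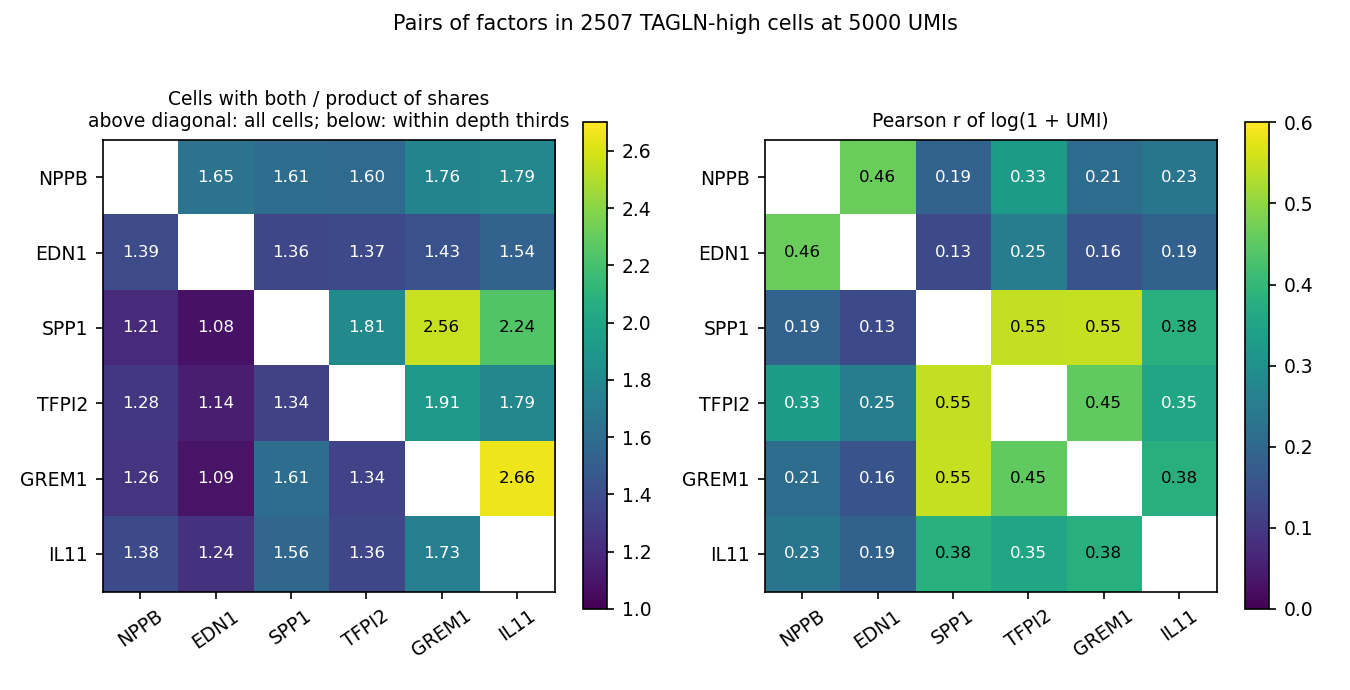
Left, cells with both factors divided by the product of their shares, for all 2507 TAGLN-high cells of 1 library (above the diagonal) and with products summed within tertiles of cell depth (below). Right, Pearson r of the natural log of 1 + UMI at 5000 UMIs over the same cells. GREM1 with IL11 had the highest ratio (2.66), SPP1 with GREM1 and TFPI2 the highest r (0.55), and EDN1 with SPP1 the lowest of both (1.36 and 0.13).

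The counts themselves were compared on the log(1 + UMI) scale over the 2507 thinned cells, and EDN1 with SPP1 was again the lowest pair. Pearson r was 0.55 for SPP1 with GREM1 and for SPP1 with TFPI2, 0.46 for NPPB with EDN1, and 0.13 for EDN1 with SPP1. Cells of 1 library share their source, and the correlations are descriptions only. Among 9417 genes found in at least 5% of these cells, those most like NPPB were ANKRD1 (r = 0.54), CCN2 (0.49) and TAGLN (0.49). Those most like EDN1 were CCN2 (0.53), ANKRD1 (0.52) and CALD1 (0.48). The genes most like SPP1 were S100A10 (0.60), ANXA1 (0.59) and COL8A1 (0.59), and those most like TFPI2 were ANXA1 (0.58), SPP1 (0.55) and VIM (0.54). GREM1 was most like SPP1 (0.55), COL8A1 (0.52) and FABP5 (0.50), and the genes like IL11 included S100A10 (0.42) and FABP5 (0.41). With TAGLN itself, r was 0.49 for NPPB, 0.44 for EDN1, 0.22 for TFPI2, 0.18 for IL11, 0.05 for GREM1 and 0.01 for SPP1.

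WLS, which encodes the carrier that brings WNT proteins to the cell surface, was used as a second division of the TAGLN-high cells. WLS was found in 192 of the thinned TAGLN-high cells and not in 2315. The WLS cells were deeper, with a median of 53542.5 against 35301 UMIs, and lower in TAGLN, at 26.7 against 35.3 UMIs per 10000. SPP1 was found in 79.2% of them (72.7 to 84.7) against 27.1% (25.3 to 28.9) of cells without WLS, TFPI2 in 77.6 against 41.6%, GREM1 in 48.4 against 17.1% and IL11 in 39.6 against 15.6%. For the vasoactive peptides the shares were closer, with 37.5% (30.6 to 44.8) against 32.1% (30.2 to 34.0) for NPPB and 39.6% (32.6 to 46.9) against 37.9% (35.9 to 39.9) for EDN1. Their intervals overlapped.

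As levels, SPP1 was 3.88-fold higher with WLS, GREM1 2.40-fold, IL11 1.94-fold and TFPI2 1.87-fold, where 7.99% of 16634 genes were at least 1.5-fold higher and 13.2% that much lower. NPPB had a ratio of 1.05 and EDN1 of 0.823, both within 1.5-fold. Without cells of 50000 or more UMIs, NPPB reached 1.65, SPP1 7.54, GREM1 4.32, IL11 3.41 and TFPI2 2.97. The NPPB ratio was 0.819 when cells were thinned to 2500 UMIs and 0.843 with a second seed, so its direction is not settled. In the deep tertile, where median depths were 63780.5 and 60915 UMIs, SPP1 was found in 87.5% of 120 cells with WLS and 55.7% of 716 without. GREM1 was found in 61.7 against 39.4% there, while NPPB stood at 40.8 against 53.5% and EDN1 at 45.0 against 57.1%. In the middle tertile, with 54 and 781 cells, NPPB stood at 37.0 against 32.3% and EDN1 at 27.8 against 40.8%. In the shallow one, with only 18 cells with WLS against 818, NPPB stood at 16.7 against 13.1% and EDN1 at 38.9 against 18.3%. Median depths there were unequal, at 11783 and 19879.5 UMIs. The point values of both vasoactive peptides thus differed in direction between depths. The intervals overlapped in each tertile, but such overlap does not show that the shares were equal. With WLS, the interval of EDN1 in the shallow tertile was 17.3 to 64.3%, against 15.7 to 21.2% without. That of NPPB in the deep one was 32.0 to 50.2%, against 49.8 to 57.2%. That of EDN1 in the deep one was 35.9 to 54.3%, against 53.4 to 60.8%, so both overlaps there were narrow. In the deep tertile both peptides were thus found in a lower share of the cells with WLS. Those cells also had a lower median TAGLN level, at 27.3 against 43.2, and the part of TAGLN in this gap was not tested. No direction across all depths is settled by these counts. At a TAGLN level of 20 to 50, with 96 and 940 cells, SPP1 was found in 82.3 against 32.9%, GREM1 in 51.0 against 22.2%, NPPB in 38.5 against 26.8% and EDN1 in 42.7 against 35.5%. The 96 cells with WLS were again deeper, at a median of 56427.5 against 39613 UMIs. The part of depth in these gaps was not tested.

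**Figure D5:**
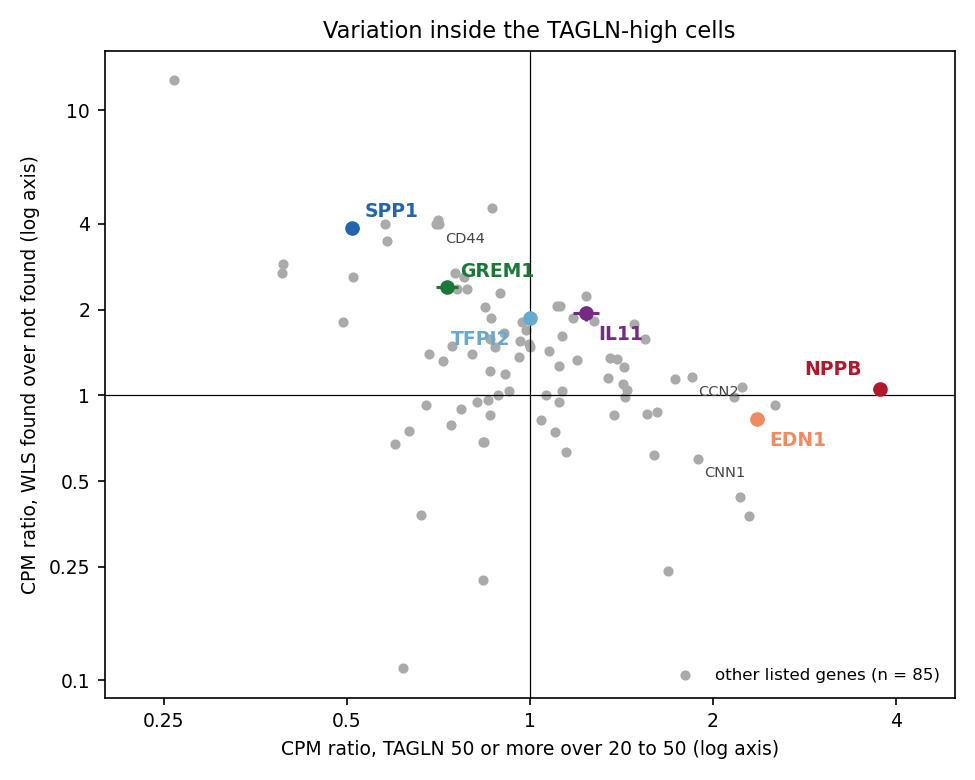
Ratio of pooled CPM for cells with TAGLN at 50 or more over 20 to 50 (x, log axis) and for cells with WLS found over not found (y, log axis), all TAGLN-high cells of 1 library. Coloured points are the 6 factors with 95% counting intervals and grey points the other listed genes measured in both. NPPB (3.76 and 1.05) and EDN1 (2.36 and 0.823) lie to the right, SPP1 (0.511 and 3.88) and GREM1 (0.732 and 2.40) to the upper left.

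Shares were also taken by a neural progenitor marker. In TAGLN-high cells with SOX2, a transcription factor of neural progenitors, all 6 shares were lower than in cells without it. NPPB was found in 23.0 against 43.5%, SPP1 in 21.7 against 42.1% and IL11 in 10.9 against 25.2%. The cells with SOX2 were shallower, at a median of 33028 against 41782 UMIs, and lower in TAGLN, at 28.3 against 41.7. In cells with TOP2A, a topoisomerase of dividing cells, SPP1 was found in 27.6 against 34.4% and NPPB in 31.4 against 33.5%.

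Outside the TAGLN-high group, cells with several factors had more TAGLN than cells with none. The 118 other cells with at least 2 factors had a median TAGLN level of 4.73 UMIs per 10000, and 46.6% of them were at 5 or more. The 10356 cells with none had a median of 0, and 5.55% were at 5 or more. The former were also deeper, at a median of 35320.5 against 16415 UMIs. In other cells all 15 pairs were again above the product of shares, with a median ratio of 7.25. The counts were small, from 7 cells for NPPB with EDN1 (product 1.81) to 53 for SPP1 with TFPI2 (product 12.3). With so few cells, the ratio is not set against that of the TAGLN-high cells.

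The receptors and partners of the factors were set beside them as lists, chosen by pathway with earlier results of these data known. They are described by their counts of genes at 3-fold, against 4.01% higher and 7.77% lower over all genes tested. Lists chosen in this way are not independent of the data, so the counts are descriptions only. In the natriuretic peptide list, 3 of 9 tested genes besides NPPB were at least 3-fold higher in TAGLN-high cells and 0 that much lower, with a median ratio of 0.865. The higher genes were FURIN (3.09), a protease that can cut the NPPB precursor, and MME (3.29) and NPR3 (3.23), which remove natriuretic peptides. The signalling receptor NPR1 stood at 3.17 against 4.56 CPM, a ratio of 0.696 by CPM and 1.49 by UMIs per cell. The sister hormone NPPA stood at 0.595 against 0.688 CPM, a ratio of 0.865 by CPM and 1.86 by UMIs per cell.

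Both endothelin receptors had ratios below 1 by CPM, and only EDNRB kept one by UMIs per cell. Of 4 tested genes besides EDN1, 0 were at least 3-fold higher, against 4.01% of all genes, and 2 that much lower, against 7.77%. The lower ones were EDN3 (0.301) and the receptor EDNRB (0.330), and the median ratio was 0.428. EDNRB stood at 3.14 against 9.53 CPM and its ratio by UMIs per cell was 0.707. The other receptor, EDNRA, stood at 2.16 against 3.90 CPM, with a ratio of 0.555 by CPM and 1.19 by UMIs per cell. The converting enzyme ECE1 had a ratio of 1.93.

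Partners of osteopontin and genes of coagulation and plasmin control were counted next, beside the same 4.01% higher and 7.77% lower of all genes. For osteopontin, 2 of 7 tested partners were at least 3-fold higher, CD44 (10.3) and ITGAV (3.34), and 0 that much lower, with a median ratio of 2.58. In the list around TFPI2, 9 of 13 were at least 3-fold higher and 0 that much lower, with a median ratio of 5.56. Among these, THBD had a ratio of 18.3, F2RL1 of 17.8, ANXA2 of 13.1 and PLAU of 6.41. F3, tissue factor, which starts coagulation, had 10.4 against 9.85 CPM, a ratio of 1.05.

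Genes of BMP and gp130 signalling came next, again beside 4.01% higher and 7.77% lower of all genes. Around GREM1, 2 of 14 tested genes were at least 3-fold higher and 0 that much lower, with a median ratio of 1.21. The higher ones were BMP4 (12.7), a ligand that gremlin binds, and FST (4.38), an activin antagonist. Of the BMP target genes, ID1 had a ratio of 2.44, ID3 of 1.24 and ID2 of 0.386. Around IL11, 1 of 8 was at least 3-fold higher, IL6R (7.86), with a median ratio of 1.48. The IL11 receptor IL11RA stood at 4.62 against 5.98 CPM, a ratio of 0.772 by CPM and 1.66 by UMIs per cell. Its partner IL6ST (gp130) had a ratio of 1.44 and STAT3, which acts below it, of 1.06.

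Other secreted factors of vessels and wounds were largely higher. Of 24 tested, 15 were at least 3-fold higher and 0 that much lower, against 4.01% and 7.77% of all genes, with a median ratio of 5.93. PDGFB had a ratio of 30.7, CCN2 (listed as CTGF) 28.8, TGFB2 16.6, HBEGF 16.3 and ADM 15.6, while VEGFC had 0.483 by CPM and 1.04 by UMIs per cell. Of 11 contractile genes tested, TAGLN included, 8 were at least 3-fold higher, with a median ratio of 7.46. TAGLN defined the group, so its own higher level follows from the rule.

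Inside the TAGLN-high cells the lists were counted at 1.5-fold, and they did not all follow their factor. With TAGLN at 50 or more over 20 to 50, where 1.62% of all genes were higher and 7.2% lower, 0 of 8 natriuretic genes besides NPPB were higher and 3 lower, NPR1 (0.619), NPR3 (0.494) and PRKG1 (0.632). Of 3 endothelin genes besides EDN1, 0 were higher and 1 lower, EDNRB (0.578). Around GREM1 0 of 12 were higher and 2 lower, FST (0.393) and ID2 (0.601), and around IL11 0 of 8 were higher and 1 lower, OSMR (0.391). In the same comparison, 6 of 24 other secreted factors were at least 1.5-fold higher, among them PDGFB (2.24), CCN2 (1.85) and ADM, and 3 that much lower, POSTN (0.260), LOX and ANGPTL4. Of the genes around osteopontin 0 of 7 passed 1.5-fold in either direction, and of those around TFPI2 2 of 13 were higher, THBS1 (1.60) and PROCR. With WLS found over not found, where 7.99% of all genes were higher and 13.2% lower, 4 of 9 natriuretic genes were higher and 2 lower, and EDNRB (4.007) was the 1 endothelin gene of 3 that was higher. Around GREM1 2 of 12 were higher, FST (2.90) and BMP2 (2.37), with 0 lower and a median ratio of 0.954. Around IL11 3 of 8 were higher, IL6R (2.06), LIFR (2.68) and OSMR (2.68), and 1 lower, SOCS3 (0.634). By the same measure, 11 of 24 other secreted factors were at least 1.5-fold higher and 1 that much lower. Around osteopontin 4 of 7 were higher, among them CD44 (4.001), and around TFPI2 8 of 13 were higher and 1 lower, THBS1. Of the 11 contractile genes, 6 were higher with TAGLN, TAGLN itself included, and 1 lower, MYH11 (0.663), while 0 were higher with WLS, where 4 were lower, among them ACTA2 (0.378) and CNN1. TAGLN divided the cells in the first comparison, so its own higher level follows from that division.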

How the data were processed

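Single cells of 1 library were captured with a 10x 3′ kit. The authors deposited raw counts of UMIs per gene and barcode, without normalization. Per the labels, these were made with Cell Ranger 7.0.1 on GRCh38, which also removed barcodes not called as cells; Seurat 4.4.0 is named too, and the annotation version and counting strand are not given in the sources used here. All 14726 barcodes were unique and carried 1 suffix, and nothing separates the loading wells. The library held 327640709 UMIs.

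Barcodes with 2000 to 10000 detected genes and a mitochondrial share below 0.1 were kept, after the study's methods. The 6 genes, the lists and the limits were chosen with earlier results of these data known, and the ratios inside TAGLN-high cells (TAGLN at 50 or more over 20 to 50, WLS found over not found), all divisions by depth and the make-up of the factors by TAGLN level in other cells were added after the data were seen. Levels were pooled CPM with exact Poisson intervals, ratios had exact conditional intervals and shares had Clopper-Pearson intervals (95%). Ratios were given for genes with at least 50 UMIs in the cells compared. PCR copies were collapsed by UMI, and cells of 1 library are not replicates, so intervals cover counting error only. Thinning drew 5000 UMIs per cell without replacement with a fixed seed. Named genes were the 6 factors and fixed pathway and marker lists, with values for the genes a sentence turns on; 1 listed gene is not reported here by name. Scrublet marked 1 barcode (0.00679%) which shows that it had failed, so none were removed. An alternative left out the 1178 highest scores (8%). Start-site windows and their sequences were RefSeq's (GRCh38.p14). Calculations were tested on simulated data. Tools were scanpy 1.11.5, matplotlib 3.10.9, pandas 2.3.3, scipy 1.17.1 and numpy 2.4.6 under Python 3.11.15. Alternatives were the TAGLN limit, the thinning depth and seed, the quality limits, removal of cells of 50000 or more UMIs, the scale and the UMI minimum.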

Additional observations from a re-analysis of the deposited data

Results flagged for a closer look

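The 6 factors were also counted in the 801 barcodes outside the quality limits, which no comparison above used, against a summed level of 53.5 CPM in the other kept cells. In the 520 barcodes with under 2000 genes they summed to 302.8 CPM (95% interval 269.9 to 338.7), and 58 of these barcodes were at or above the TAGLN limit. In the 94 barcodes with over 10000 genes they summed to 2076 CPM (2048 to 2105), above the 1574 CPM of the kept TAGLN-high cells. Of those 94, 81 were at or above the TAGLN limit, their median depth was 103907 UMIs, and SPP1 alone stood at 876.7 CPM in them. In the 187 barcodes outside the limits only by a mitochondrial share of at least 0.1 they summed to 574.8 CPM (543.0 to 608.0), with 25 at or above the TAGLN limit. The part of depth and of doublets in these values was not tested.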

How the results depend on the processing

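With 1 library and no replicates, no alternative tests a condition. No paired analysis was possible because there is 1 library. The count of 6 factors at 3-fold or more and that of 15 pairs above the product in TAGLN-high cells were the same under each alternative that gave them, and in other cells 13 pairs were above it with a TAGLN limit of 5. The 48.2% of TAGLN-high cells with at least 2 factors became 39.2% and 58.7% with TAGLN limits of 5 and 20, 39.4% and 57.1% at 2500 and 10000 UMIs, and 33.3% without cells of 50000 or more UMIs. The 1.04% of other cells became 0.590, 2.18, 0.622, 2.11 and 0.772% in the same order. The 4.01% of all genes at least 3-fold higher became 13.0% by UMIs per cell and 6.70% with a minimum of 1 UMI. Of 42 alternative ratios between TAGLN-high and other cells 0 changed direction, but the genes had been chosen for that direction. Of these 42 ratios, 35 lay outside the main interval. Inside the TAGLN-high cells, 3 of 30 ratios along TAGLN changed direction, all for TFPI2: 0.987 with no quality limits, 0.992 without the 8% highest Scrublet scores and 0.971 by UMIs per cell. Another 17 lay outside the main interval. Of 48 ratios with WLS 3 changed direction: NPPB 0.819 at 2500 UMIs and 0.843 with a second seed, and EDN1 1.14 by UMIs per cell. Another 31 lay outside the main interval. The cause was not tested. The NPPB ratio with WLS ran from 0.819 to 1.65 and that of SPP1 from 3.28 to 7.54. Counts at 5000 UMIs cannot show a factor absent from a cell.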
